A study of Mus musculus with 15 samples.

Results

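The genes described here are 8 amino acid transporter genes of tumours grown from MDA-MB-231, an established line of human breast cancer of the triple-negative kind: SLC7A1, SLC7A2, SLC7A5, SLC7A6, SLC7A7, SLC7A8 and SLC7A11 of the SLC7 family, and SLC3A2, the partner of several of them. They are 8 of the 25382 gene symbols in the count table, and all 8 were among the 15190 genes with enough counts to be tested. SLC7A2 was chosen by its counts in these same libraries, for being higher in tumours of strongly adherent cells than in tumours of weakly adherent cells with the same title number, so those values are given as a description. The other 7 were taken as its relatives. The cells carried GFP and luciferase, were classed by adhesion under fluid shear, and formed primary tumours in mice whose strain is given as Nod/Skid. Strongly adherent cells were taken at a shear of 50 dyn per square centimetre (4 libraries) and weakly adherent cells at 10 dyn per square centimetre (6 libraries), while unsorted cells saw no shear (5 libraries). All groups share the line, its GFP and luciferase and the mouse strain, and the labels name no other allele or agent and no age. The labels do not state whether the cell populations were clones or pools, nor whether host cells were removed once the tumours had been dissociated. Bulk mRNA was sequenced, so that fewer cells of a type and less RNA per cell cannot be told apart in any value below. The title number of a library (4, 5, 6, 7-8, 9 or 10) follows its group name here. What this number stands for is not stated in the labels, and neither is it stated that libraries are from separate animals, so p-values measure the spread between these libraries, which may be technical.

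Amino acids are charged or bulky molecules and cross the plasma membrane through carrier proteins, of which the SLC7 family is a major group. Some members, the cationic amino acid transporters, work by themselves and take up arginine, lysine and ornithine. Others are light chains that reach the cell surface only when joined by a disulfide bond to a heavy chain, most often the glycoprotein made by SLC3A2, and then exchange an amino acid outside the cell for another inside. In tumour cells these exchangers are known for bringing in leucine and other essential amino acids, which feed the growth-controlling kinase complex mTORC1, and cystine, from which the antioxidant glutathione is made.

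Library totals ran from 30372619 to 45434799 counts, and levels are given as CPM, a gene's counts relative to the size of its library after TMM scaling. Genes known to be silent or nearly so in this line were so here: CDKN2A had 0 counts in every library, and ESR1, the oestrogen receptor gene, reached at most 0.234 CPM. VIM (1140 to 7400 CPM), CD44 (478 to 776 CPM) and KRT18 (279 to 970 CPM), which the line is known to express, were present throughout. The 3 libraries titled number 6 stood apart from the other 12 in 27.9% of the genes tested by edgeR. Strongly adherent library 5 stood apart by skeletal muscle genes, and it had the lowest VIM of the 15 libraries, at 1140 CPM. The 18 muscle marker genes summed to 3100 CPM in that library and to 470, 186 and 1150 CPM in strongly adherent, weakly adherent and unsorted library 6. They summed to 13.8 to 26.4 CPM in the other 11 libraries. Fold changes of the 8 genes between adhesion groups are given with and without these 4 libraries.

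SLC7A2 encodes a cationic amino acid transporter that carries arginine. It stood at 20.8, 22, 30.1 and 12.3 CPM in strongly adherent libraries 4, 5, 6 and 9. In the 6 weakly adherent libraries it ran from 8.81 to 14.2 CPM with a median of 11.8 CPM, and in unsorted libraries 4, 5, 6, 7-8 and 9 it was 11.5, 7.98, 8.50, 17.4 and 7.08 CPM. Of the 4 strongly adherent libraries, 3 lay above every weakly adherent and every unsorted library. Strongly adherent library 9 lay within the range of both, so the groups overlap. The means were 21.3 ± 7.26 CPM (SD, n = 4) in strongly adherent, 11.7 ± 1.89 CPM (SD, n = 6) in weakly adherent and 10.5 ± 4.2 CPM (SD, n = 5) in unsorted origin.

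Within a title number, SLC7A2 was 1.46, 2.5, 2.43 and 1.10 times as high in the strongly as in the weakly adherent library for numbers 4, 5, 6 and 9. The ratio to the unsorted library of the same number was 1.80, 2.76, 3.54 and 1.74. The excess was thus largest in numbers 5 and 6, and over the weakly adherent library it was smallest in number 9. Of all 15190 genes, 6.16% were higher in the strongly than in the weakly adherent library in all 4 numbers, and 10.7% were higher than in the unsorted library in all 4. Since SLC7A2 was chosen for this pattern, nothing is read from its place among them.

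The fitted log2 fold change of SLC7A2 was 0.87 (SE 0.25) for strongly against weakly adherent origin and 1.02 (SE 0.27) for strongly adherent against unsorted origin, with no test for the reason given. Without the 3 libraries titled number 6 these values were 0.67 and 0.74. Without those and strongly adherent library 5 they were 0.51 and 0.59, so that 1 strongly adherent library of high SLC7A2 (library 4) and 1 of low (library 9) remained. Between weakly adherent and unsorted origin the log2 fold change was 0.15 (SE 0.24, 95% interval -0.36 to 0.66), with an adjusted p of 1 from edgeR's quasi-likelihood test. It was 0.077 without number 6. The choice did not use this comparison but did use the weakly adherent libraries, and favoured low values there. The test is thus not independent of the choice. Weakly adherent libraries were higher in 4 of 5 title numbers. The exception was number 7-8, at 10.6 CPM in the weakly adherent library against 17.4 CPM in the unsorted one.

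**Figure D1:**
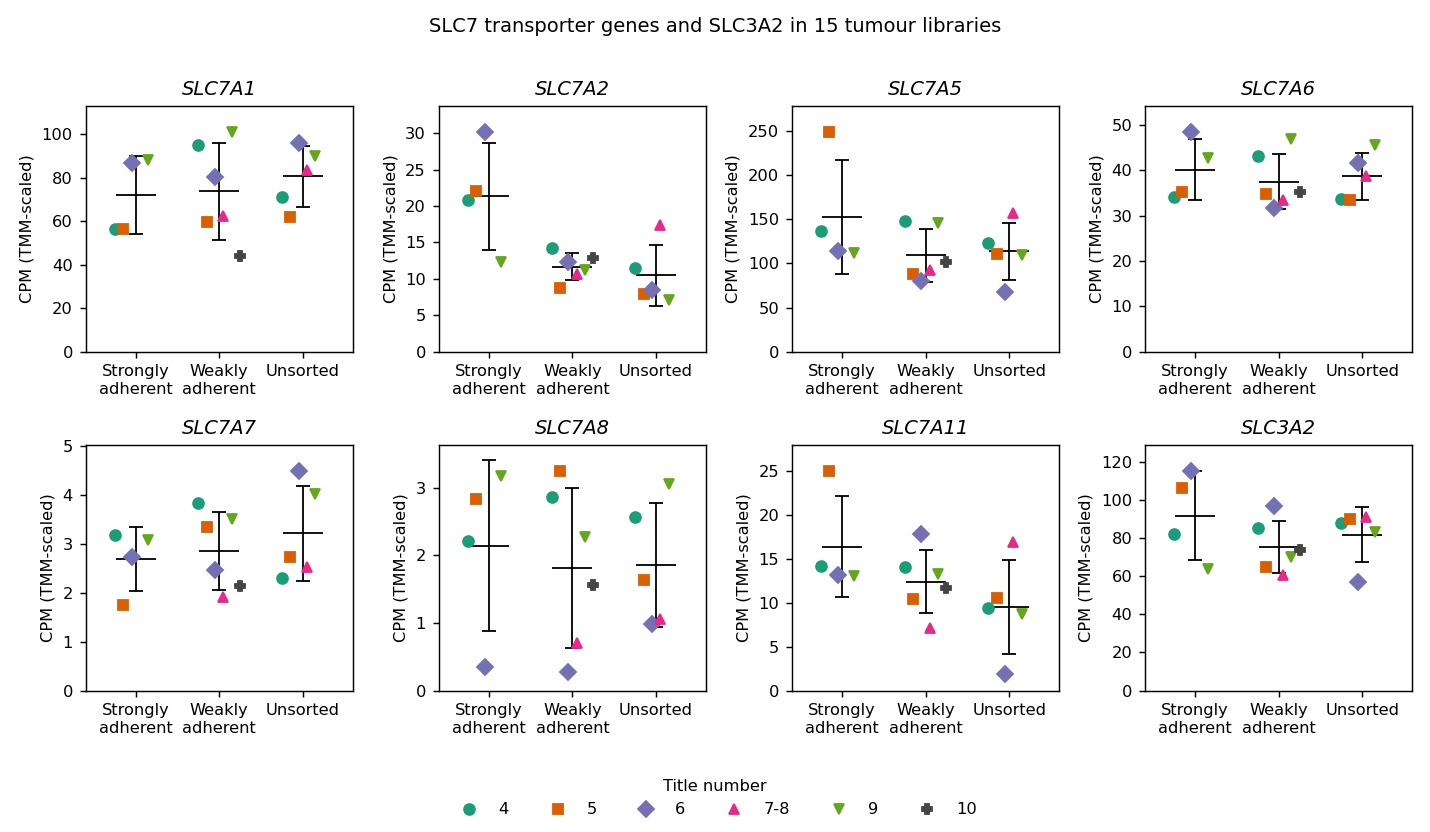
CPM (TMM-scaled, linear axis from 0) of the 8 genes in each of the 15 libraries, by adhesion group on the horizontal axis. Each point is a library with its title number given by shape and colour, and the horizontal line and bars are the group mean ± SD. For SLC7A2, 3 of the 4 strongly adherent libraries lie above all others, and the groups of every gene overlap.

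Of the 4 strongly adherent libraries, those highest in SLC7A2, 6 and 5, were also those with the most muscle RNA. Strongly adherent library 4 had 20.8 CPM of SLC7A2 and a muscle sum of 19.3 CPM, while unsorted library 6 had 8.50 CPM of SLC7A2 and a muscle sum of 1150 CPM. In the strongly adherent group the muscle sum ran from 19.3 to 3100 CPM, against 16.6 to 186 CPM in the weakly adherent group and 13.8 to 1150 CPM in the unsorted group. All 18 muscle genes had counts in at least 1 library. Leaving out strongly adherent library 5, the richest in muscle RNA, gave a log2 fold change of 0.85 against weakly adherent and 1.01 against unsorted origin. Leaving out number 6 as well gave the 0.51 and 0.59 above, and the part of muscle RNA in the difference was not tested. Among the tissues and cells known to express SLC7A2 are liver and activated macrophages. Of the 6 hepatocyte markers APOB was at 0 in all 15 libraries and ALB reached at most 0.15 CPM. Their sum, which ran from 43.6 to 97.8 CPM in strongly adherent, 46.6 to 91.7 CPM in weakly adherent and 61.2 to 93.2 CPM in unsorted libraries, was almost all SERPINA1. Of the 12 macrophage markers C1QC and TYROBP were at 0 in all libraries, and CD163, MRC1, C1QA, C1QB, ITGAM and FCER1G reached at most 0.2 CPM. CSF1R was present throughout at 4.17 to 16.3 CPM, AIF1 at 0.16 to 3.58 CPM and LYZ at 0.374 to 2.4 CPM. The sum of the 12 ran from 72.2 to 181 CPM in strongly adherent, 78.7 to 204 CPM in weakly adherent and 101 to 123 CPM in unsorted libraries. Most of it was CD68 (53.2 to 193 CPM), a lysosomal gene that tumour cells may also express. The hosts are mice and the counts are on a human build, to which mouse reads may fail to align. Low markers thus do not show that host cells were few. The part of host cells in SLC7A2 was not tested.

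**Figure D2:**
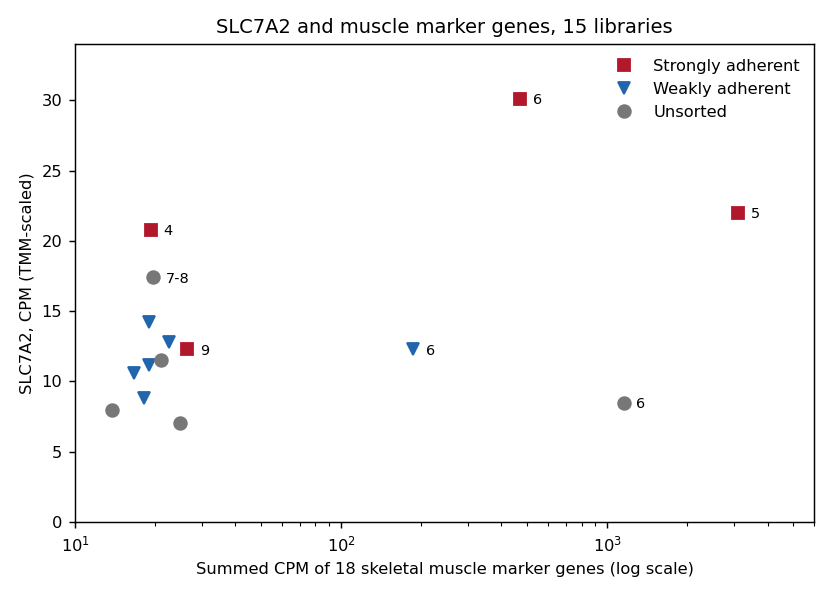
SLC7A2 in CPM (linear axis from 0) against the summed CPM of 18 skeletal muscle marker genes (log axis) in the 15 libraries. Each point is a library, with its group given by colour and shape and the title number printed beside 7 of them. Strongly adherent libraries 5 and 6 are high in SLC7A2 (22 and 30.1 CPM) at muscle sums of 3100 and 470 CPM. Strongly adherent library 4 is high in SLC7A2 at a muscle sum of 19.3 CPM, and unsorted library 6 is low in SLC7A2 at 1150 CPM.

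SLC7A1 encodes the most widely expressed cationic amino acid transporter, the usual route of arginine into growing cells. It stood at 56.4, 56.4, 86.7 and 88.4 CPM in strongly adherent libraries 4, 5, 6 and 9. It ran from 43.9 to 101 CPM with a median of 71.5 CPM in weakly adherent libraries, and was 71.4, 61.8, 96.2, 83.8 and 90.2 CPM in unsorted libraries 4, 5, 6, 7-8 and 9. The groups overlap throughout. Within title numbers SLC7A1 was lower in the strongly adherent than in the unsorted library in 4 of 4, by log2 differences of -0.34 to -0.03, as were 9.03% of all genes. The fitted log2 fold change there was -0.16 (SE 0.23, adjusted p = 0.975 by edgeR). Against weakly adherent origin the log2 fold change of strongly adherent origin was -0.038 (95% interval -0.50 to 0.43), and between weakly adherent and unsorted origin it was -0.13 (SE 0.21, adjusted p = 1 by edgeR). Without number 6 and strongly adherent library 5, SLC7A1 had log2 fold changes of -0.016 for strongly against weakly adherent, -0.091 for strongly adherent against unsorted and -0.075 for weakly adherent against unsorted origin.

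SLC3A2 encodes the heavy chain that carries the light chains to the membrane and also binds integrin beta subunits, the receptors by which cells hold on to matrix. It stood at 82.2, 106, 115 and 63.5 CPM in strongly adherent libraries 4, 5, 6 and 9. It ran from 60.4 to 96.8 CPM (median 71.7 CPM) in weakly adherent libraries and was 88.0, 90.1, 56.7, 91.1 and 82.9 CPM in unsorted libraries 4, 5, 6, 7-8 and 9. Strongly adherent libraries 5 and 6 lay above all weakly adherent and all unsorted libraries, while strongly adherent library 9 was among the lowest of the 15. The log2 fold change was 0.29 (95% interval -0.088 to 0.66) for strongly against weakly adherent, 0.17 (SE 0.19, adjusted p = 0.975 by edgeR) for strongly adherent against unsorted and -0.12 (SE 0.17, adjusted p = 1 by edgeR) for weakly adherent against unsorted origin. Without the libraries titled number 6 the 3 values were 0.24, -0.071 and -0.31, so the sign against unsorted origin rests on them. Without those and strongly adherent library 5 they were 0.029, -0.28 and -0.31.

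SLC7A5 is the light chain that takes up leucine and other large neutral amino acids together with SLC3A2. It stood at 136, 248, 114 and 112 CPM in strongly adherent libraries 4, 5, 6 and 9, ran from 80.2 to 148 CPM (median 96.6 CPM) in weakly adherent libraries, and was 123, 110, 67.9, 157 and 109 CPM in unsorted libraries 4, 5, 6, 7-8 and 9. Strongly adherent library 5 was the highest of all, and the other 3 strongly adherent libraries lay inside the ranges of both other groups. Within title numbers the strongly adherent library was higher than the unsorted one in 4 of 4 (log2 differences of 0.04 to 1.17) and higher than the weakly adherent one in 2 of 4. The log2 fold change was 0.49 (95% interval -0.071 to 1.04) against weakly adherent and 0.43 (SE 0.27, adjusted p = 0.975 by edgeR) against unsorted origin. Without strongly adherent library 5 these were 0.15 and 0.092, without number 6 they were 0.52 and 0.41, and without both they were 0.10 and -0.012. That library had the highest muscle sum and also the lowest VIM. The part of muscle RNA, or of any other feature of that library, in its SLC7A5 was not tested. Weakly adherent and unsorted origin differed by -0.057 (SE 0.25, adjusted p = 1 by edgeR), and by -0.11 without number 6.

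SLC7A8 encodes a second light chain for neutral amino acids, including small ones, and it had few counts. Strongly adherent libraries 4, 5, 6 and 9 had 2.21, 2.84, 0.348 and 3.18 CPM. Weakly adherent libraries ran from 0.276 to 3.25 CPM (median 1.91 CPM), and unsorted libraries 4, 5, 6, 7-8 and 9 had 2.57, 1.64, 0.992, 1.06 and 3.06 CPM. The lowest value rests on 9 counts, so single libraries are imprecise for this gene. Fold changes between adhesion groups were 0.23 (95% interval -1.07 to 1.54) for strongly against weakly adherent, 0.20 (SE 0.64, adjusted p = 0.981 by edgeR) for strongly adherent against unsorted and -0.029 (SE 0.58, adjusted p = 1 by edgeR) for weakly adherent against unsorted origin, all on the log2 scale. With the title number as a replicate block, the value for strongly adherent against unsorted origin was -0.26, of the other sign. Without number 6 and strongly adherent library 5 the 3 values were 0.32, 0.36 and 0.042.

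SLC7A6 and SLC7A7 encode the light chains of the system that exports arginine in exchange for neutral amino acids and sodium, SLC7A6 in most tissues and SLC7A7 mainly in gut, kidney and myeloid cells. SLC7A6 was the steadiest of the 8. It stood at 34.2, 35.2, 48.4 and 42.8 CPM in strongly adherent libraries 4, 5, 6 and 9, ran from 31.6 to 46.9 CPM (median 35.1 CPM) in weakly adherent libraries, and was 33.8, 33.5, 41.7, 38.8 and 45.6 CPM in unsorted libraries 4, 5, 6, 7-8 and 9. Over all 15 libraries its SD was 14.5% of the mean, against 20.8% for SLC3A2 and 54.8% for SLC7A8. SLC7A7 had 3.18, 1.75, 2.73 and 3.08 CPM in strongly adherent libraries 4, 5, 6 and 9, ran from 1.9 to 3.82 CPM (median 2.89 CPM) in weakly adherent libraries, and had 2.30, 2.73, 4.48, 2.52 and 4.02 CPM in unsorted libraries 4, 5, 6, 7-8 and 9. The groups overlap for both genes. The log2 fold changes of SLC7A6 were 0.096, 0.052 and -0.044 for strongly against weakly adherent, strongly adherent against unsorted and weakly adherent against unsorted origin, and those of SLC7A7 were -0.091, -0.26 and -0.17. Without number 6 and strongly adherent library 5, those of SLC7A6 were -0.022, 0.012 and 0.034 and those of SLC7A7 were 0.080, 0.11 and 0.027. Of the 2 comparisons tested for these genes, none gave an adjusted p below 0.975 by edgeR.

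SLC7A11 encodes the light chain that imports cystine in exchange for glutamate. It stood at 14.2, 25.0, 13.2 and 13.1 CPM in strongly adherent libraries 4, 5, 6 and 9, ran from 7.15 to 17.8 CPM (median 12.5 CPM) in weakly adherent libraries, and was 9.41, 10.5, 1.93, 16.9 and 8.69 CPM in unsorted libraries 4, 5, 6, 7-8 and 9. Strongly adherent library 5 was the highest and unsorted library 6 the lowest of all 15. Number 6 held both a low and a high value, since weakly adherent library 6 was at 17.8 CPM, 9.20 times unsorted library 6. Within title numbers the strongly adherent library was higher than the unsorted one in 4 of 4, by log2 differences of 0.59 to 2.73, and was higher than the weakly adherent one in 2 of 4. Besides SLC7A2, chosen for high values in these strongly adherent libraries, SLC7A5 and SLC7A11 are the members higher than unsorted in all 4 numbers, a pattern of 10.7% of all genes. The log2 fold change of strongly adherent origin was 0.79 (SE 0.42, adjusted p = 0.975 by edgeR) against unsorted and 0.40 (95% interval -0.46 to 1.26) against weakly adherent origin. Without strongly adherent library 5 these were 0.51 and 0.12, without number 6 they were 0.62 and 0.61, and without that library and number 6 they were 0.26 and 0.26. Weakly adherent and unsorted origin differed by 0.39 (SE 0.39, adjusted p = 1 by edgeR), by 0.13 without unsorted library 6, by 0.70 without unsorted library 7-8 and by 0.0055 without all 3 libraries of number 6.

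Across the whole table edgeR called 0 of 15190 genes between strongly and weakly adherent origin (0%), 0 between strongly adherent and unsorted (0%) and 0 between weakly adherent and unsorted origin (0%), so no member passed. At an unadjusted p under 0.05 by edgeR there were 366, 572 and 81 genes. In the edgeR fit with the title number as a replicate block there were 1030, 1255 and 172. DESeq2 with the group alone also called 0 in each, and with the title number as a replicate block it called 30 for strongly against weakly adherent and 23 for strongly adherent against unsorted origin. The 95% intervals of the fold changes of the 7 relatives reach beyond 2-fold in both directions for SLC7A8 alone, and upward also for SLC7A5 and SLC7A11. For SLC7A6, with the narrowest intervals, all 3 lie between -0.32 and 0.39. For strongly against weakly adherent origin fold changes were positive in 6 of 8 members (median 0.26), beside 8199 of all 15190 genes tested (median 0.02). They were positive in 6 of 8 for strongly adherent against unsorted origin (median 0.19), beside 8156 of all genes (median 0.02). SLC7A2 is among them by choice. These comparisons share the strongly adherent libraries. Between weakly adherent and unsorted origin 2 of 8 were positive (median -0.05), beside 7581 of all genes (median 0.00).

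**Figure D3:**
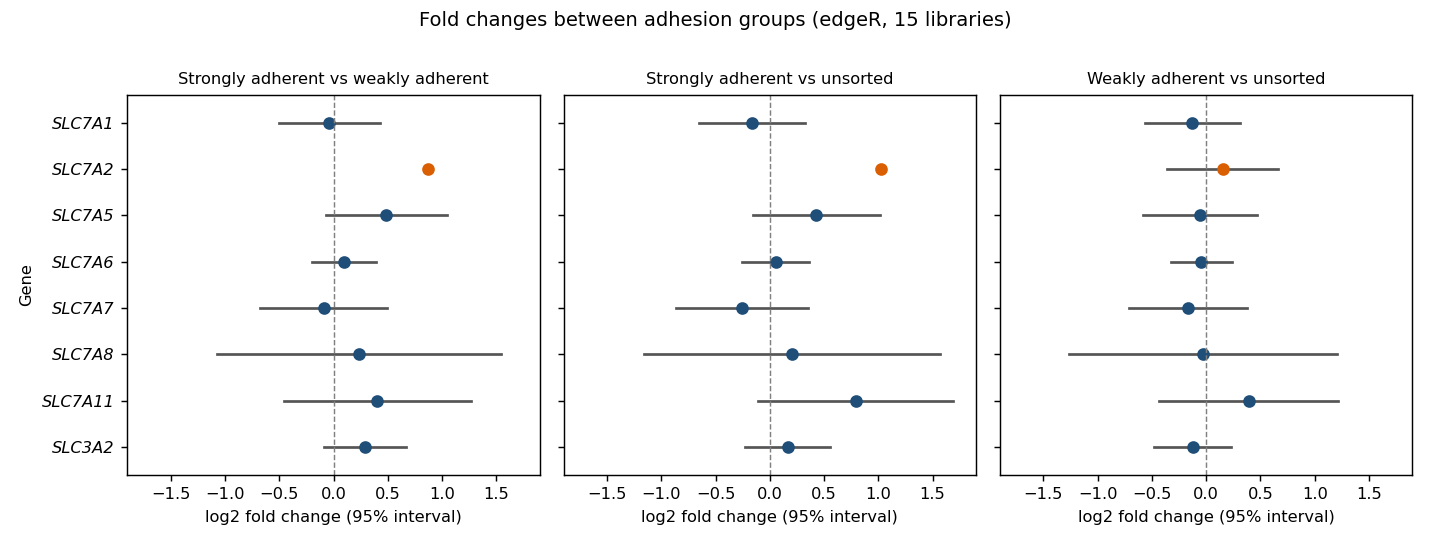
Log2 fold changes (points) with 95% intervals (lines) of the 8 genes in the 3 comparisons between adhesion groups, from an edgeR fit of all 15 libraries. SLC7A2, in orange, was chosen for its difference between strongly and weakly adherent origin, so its 0.87 and 1.02 in the comparisons with strongly adherent libraries are drawn without an interval. Every interval drawn includes 0. That of SLC7A2 in the third comparison shares the weakly adherent libraries used to choose the gene.

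Of the 8 genes, SLC7A1 and SLC7A8 differed by title number. With the adhesion group as a term, 1200 of 15190 genes (7.9%) differed between title numbers by edgeR's quasi-likelihood F test, among them SLC7A8 (adjusted p = 0.0290) and SLC7A1 (adjusted p = 0.0449). The other 6 members had adjusted p-values from 0.349 for SLC7A2 to 0.967 for SLC7A11 in this edgeR fit. DESeq2's likelihood ratio test, which called 3344 genes, gave adjusted p-values of 1.89e-05 for SLC7A8 and 0.000599 for SLC7A1. Single libraries were left out in edgeR alone, where the calls of SLC7A8 and SLC7A1 depend on them. That of SLC7A8 was lost in 8 of 15 fits that left out a library, which were strongly adherent 4 and 6, weakly adherent 4, 6 and 7-8, and unsorted 4, 7-8 and 9 (adjusted p of 0.0515 to 0.129 by edgeR). That of SLC7A1 was lost in 10 of 15, without strongly adherent 4, 6 and 9, weakly adherent 5, 9 and 10, and unsorted 4, 5, 6 and 9 (adjusted p of 0.0572 to 0.102 by edgeR). Without the 3 libraries titled number 6, edgeR called 3 genes in all, with SLC7A8 at an adjusted p of 0.278 and SLC7A1 at 0.197.

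SLC7A8 was lowest in number 6, at 0.539 ± 0.394 CPM (SD, n = 3), and next lowest in number 7-8, at 0.701 and 1.06 CPM in the weakly adherent and unsorted library. Every library of the other numbers was at 1.56 CPM or more. The share of all genes with such a gap was not counted, so nothing is read from it. Compared with the mean of the other numbers, 4242 genes differed in number 6, of which 1757 (11.6% of those tested) were higher and 2485 (16.4%) were lower. SLC7A8 ran from 0.276 to 0.992 CPM in number 6, which overlaps the 0.701 to 3.25 CPM of the other 12 libraries. It was lower in number 6 by edgeR, with a log2 fold change of -1.88 (SE 0.41, adjusted p = 0.00617). This call was kept when each library was left out in turn, with log2 fold changes of -2.61 to -1.52.

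SLC7A1 was higher in number 6 by edgeR (log2 fold change 0.42, SE 0.13, adjusted p = 0.0327). Its 3 libraries stood at 80.3 to 96.2 CPM, within the range of the other 12 (43.9 to 101 CPM). Number 9 was as high, at 93.3 ± 6.91 CPM (SD, n = 3) beside 87.7 ± 8.02 CPM (SD, n = 3) in number 6, while number 5 had 59.3 ± 2.74 CPM (SD, n = 3) and the single library of number 10 had 43.9 CPM. In the same contrast number 9 had a larger log2 fold change of 0.53 (SE 0.13, adjusted p = 0.322 by edgeR). Its unadjusted p was 0.00151, against 0.00732 in number 6, by edgeR. Number 10, a single library, had -0.84. The call in number 6 thus does not mark SLC7A1 as particular to that number. The call in number 6 was lost in 6 of 15 edgeR fits that left out a library, which were strongly adherent 4 and 6, weakly adherent 10, and unsorted 4, 6 and 9 (adjusted p of 0.0521 to 0.159). SLC7A5 had a log2 fold change of -0.61 in number 6 (SE 0.26, adjusted p = 0.103 by edgeR). In number 6 DESeq2 gave adjusted p-values of 0.0422 for SLC7A5, 0.0132 for SLC7A1 and 3.52e-05 for SLC7A8. SLC7A2 had a log2 fold change of 0.12 there (SE 0.23, adjusted p = 0.723 by edgeR). In number 6 edgeR thus called 2 of 8 members, and 27.9% of all genes. In the other 5 contrasts of a title number with the rest edgeR called 0 to 10 genes and no member.

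**Figure D4:**
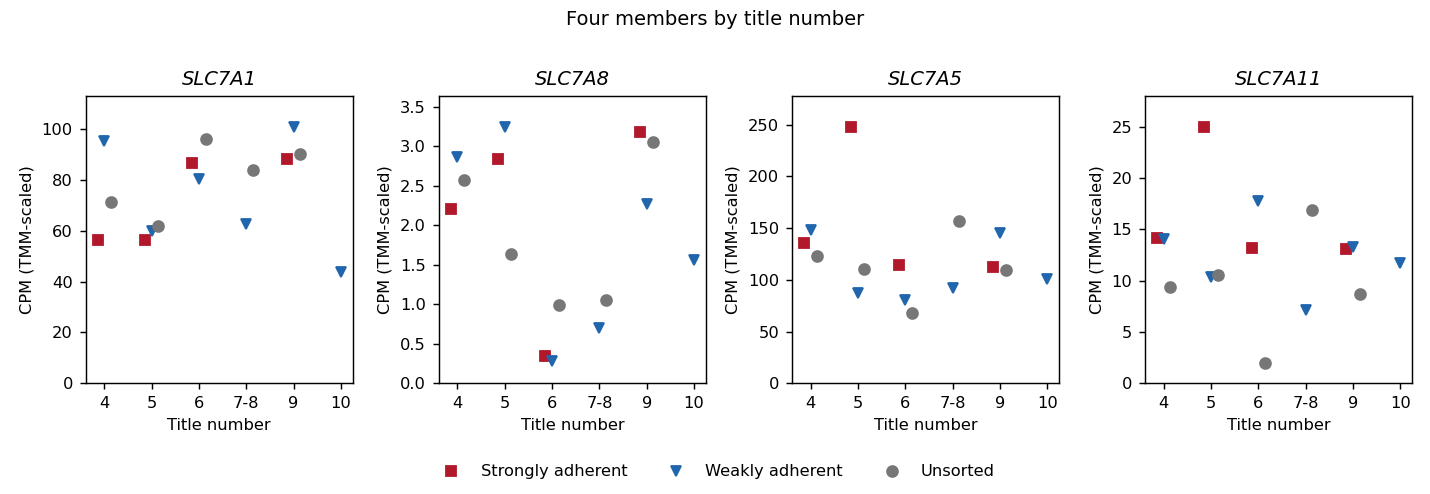
CPM (TMM-scaled, linear axes from 0) of SLC7A1, SLC7A8, SLC7A5 and SLC7A11 in the 15 libraries by title number, with the adhesion group given by colour and shape. SLC7A8 is low in all 3 libraries of number 6 and both of number 7-8. SLC7A11 spreads from 1.93 to 17.8 CPM within number 6.

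Taking the spread of log2 CPM over the 15 libraries, 53.7% of that of SLC7A2 lay between adhesion groups, a share its choice favours and from which nothing is read, and 15.9% between title numbers. For SLC7A8 it was 1.49% between adhesion groups and 85.1% between title numbers, and for SLC7A1 5.47% and 75.8%. The median over all genes tested was 7.36% between adhesion groups and 50.5% between title numbers. There are more title numbers than adhesion groups, which by itself puts more of the spread between numbers, so the shares serve to set genes side by side. SLC7A11 (25.4% between adhesion groups), SLC7A5 (18.5%) and SLC3A2 (13.7%) lay above the median for adhesion groups and below it for title numbers (13.1%, 31.8% and 15.2%). All of these genes were lowest in unsorted library 6, and SLC7A11 and SLC7A5 were highest in strongly adherent library 5. The shares were not recomputed without those libraries. The remaining light chains, SLC7A6 and SLC7A7, were near the median gene, with 3.84% and 6.53% between adhesion groups.

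In the 5 lists of genes around these transporters edgeR called none between adhesion groups, with or without the replicate block, and neither did DESeq2 with the group alone. DESeq2 with the block called 2 genes for strongly adherent against unsorted origin, VEGFA at a log2 fold change of 0.597 (adjusted p = 0.0422) and SLC6A14 at 2.74 (adjusted p = 0.0241), and none in the other 2 comparisons. Of 22 tested genes of the amino acid stress response governed by the transcription factor ATF4, of which SLC7A5, SLC7A11 and SLC3A2 are known targets in their own right, 18 had a positive fold change for strongly adherent against unsorted origin (median 0.16, against 0.02 over all genes), and 15 for strongly against weakly adherent origin (median 0.16). VEGFA, the angiogenic growth factor, had 0.49 (SE 0.20, adjusted p = 0.975 by edgeR) for strongly adherent against unsorted origin, and ATF4 itself had 0.115 (SE 0.175). Of 22 genes listed as other amino acid transporters 12 were positive in each comparison with strongly adherent origin (medians 0.04 and 0.03), a share near that over all genes. SLC38A2, a sodium-coupled carrier of glutamine and alanine, had 0.38 (SE 0.145, adjusted p = 0.975 by edgeR) for strongly adherent against unsorted origin. Medians for the 21 genes of arginine and polyamine metabolism were -0.01 against weakly adherent and -0.04 against unsorted origin, those for the 20 genes of glutathione and cystine 0.03 and 0.01, and those for the 23 genes of amino acid sensing by mTORC1 0.01 and -0.03.

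Between title numbers, where 7.9% of all genes were called by edgeR, the calls were 4 of 22 other transporters, 3 of 21 genes of arginine and polyamine metabolism, 1 of 20 of glutathione and cystine, 1 of 22 of the ATF4 list (ATF3, a stress-induced transcription factor) and 0 of 23 of the mTORC1 list. The calls in number 6 stand beside 27.9% of all genes called there. In arginine and polyamine metabolism 7 of 21 passed in number 6, 3 higher and 4 lower. ODC1, the first enzyme of polyamine synthesis, lay between 337 and 475 CPM in the 3 number 6 libraries, against 133 to 261 CPM in the other 12 (log2 fold change 1.02, SE 0.15, adjusted p = 0.00081 by edgeR), and SMS, spermine synthase, had a log2 fold change of 0.58. ASS1, which makes arginine's precursor from citrulline and aspartate, was at 2.93 to 9.74 CPM in number 6 against 10.8 to 46.4 CPM in the other 12 (log2 fold change -1.81, SE 0.37, adjusted p = 0.00604 by edgeR), and GATM, which uses arginine for creatine synthesis, had -1.94. For each of these 4 genes the range of the number 6 libraries did not overlap with that of the other 12. The 4 were named for the smallest p in this same contrast, which favours such a gap. The share of all genes with such a gap was not counted, so nothing is read from it.

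Of the other amino acid transporters 8 of 22 passed in number 6, 4 in each direction. SLC6A14, a sodium- and chloride-coupled carrier of neutral and cationic amino acids, was at 0.0509 to 1.08 CPM in number 6 and at 2.54 to 75.4 CPM elsewhere (log2 fold change -5.41, SE 0.75, adjusted p = 0.00145 by edgeR). SLC43A2, a carrier of large neutral amino acids, had -1.74, SLC6A9, a glycine carrier, had -0.54, and SLC43A3 had 0.73. SLC43A3 is in the list by its family name and is not an amino acid carrier. The counts of this list, here and above, include it. In glutathione and cystine metabolism 6 of 20 passed, 3 in each direction, with GCLM, the regulatory subunit of the first enzyme of glutathione synthesis, at -0.98, GSR, glutathione reductase, at -0.56, NQO1, a quinone reductase, at -0.62 and CTH, which makes cysteine from cystathionine, at 0.91. In the ATF4 list 6 of 22 passed, 4 higher and 2 lower, among them EIF4EBP1, an inhibitor of translation, at 0.58 and PHGDH, the first enzyme of serine synthesis, at 0.64, with VEGFA at -0.50 and GPT2, an alanine aminotransferase, at -0.45. Of the mTORC1 list 4 of 23 passed, with RRAGD at 0.75, RRAGA at 0.34, both amino acid-sensing GTPases, TSC2, an inhibitor of the pathway, at 0.53, and SESN1, a sestrin, at -0.46.

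The genes most like SLC7A2 over the 15 libraries, among 13130 with a mean of at least 1 CPM, were ATAD1 (Pearson's r of log2 CPM 0.864), FKBP9P1 (0.861), KLF5 (0.840), RAB3D (0.830) and ALOX15B (0.825). Without the libraries titled number 6 these values were 0.923, 0.764, 0.958, 0.740 and 0.792. KLF5, a transcription factor of epithelia, stood at 79.9, 79.4, 80.3 and 50.9 CPM in strongly adherent libraries 4, 5, 6 and 9, and so had the low value of library 9 in common with SLC7A2. Over deviations from title-number means in the 14 libraries whose number has more than 1, the most alike were PAPLN (0.974), EPAS1 (0.971), AREG (0.968), GPCPD1 (0.959) and ANKRD20A5P (0.937). Without number 6 these were 0.866, 0.909, 0.928, 0.868 and 0.251, so the likeness of ANKRD20A5P rests on number 6. EPAS1, a hypoxia-inducible transcription factor, stood at 120, 161, 60.8 and 48.2 CPM in strongly adherent libraries 4, 5, 6 and 9, and AREG, which encodes the growth factor amphiregulin, at 14.6, 14.1, 9.20 and 6.26 CPM. All these values come from the same libraries and share their depth and sorting, the genes are the extremes of many, and the r values are given as a description. FKBP9P1 and ANKRD20A5P are pseudogenes, so their reads may belong to related genes.

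The table holds 7 other genes of the SLC7 and SLC3 families, all with few counts. SLC7A13 and SLC7A14 had no count in any library, SLC7A3 had 2 counts and SLC7A4 had 9 counts in all 15 together, and SLC3A1, the heavy chain of the kidney cystine transporter, had 81. SLC7A9, its light chain, had 137 counts in all and reached 0.573 CPM, and SLC7A10, a carrier of small neutral amino acids, had 337 counts and ran from 0.0267 to 0.808 CPM in strongly adherent, 0.123 to 2.01 CPM in weakly adherent and 0 to 1.02 CPM in unsorted libraries. SLC7A5 has copies in the genome, of which SLC7A5P2 had 17 to 79 counts per library and SLC7A5P1 had 0 to 5, against 2611 to 11790 for SLC7A5. How reads shared between them were counted is not stated. SLC7A11-AS1, antisense to SLC7A11, had 26 of its 55 counts in strongly adherent library 5, where SLC7A11 had 1189. SLC7A6OS, on the strand opposite SLC7A6, ran from 7.37 to 10.4 CPM, and SNHG1, a noncoding RNA gene close to SLC3A2, from 38.3 to 71.1 CPM. The sources used here do not give whether the counting used strand, so these neighbours may share reads with the members.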

How the data were processed

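Tumour mRNA was prepared with the TruSeq stranded kit and read as 50 bp single ends, per the labels' protocols. The build was hg19 and the tools were FastQC, cutadapt, HTSeq, STAR and DESeq2, without versions, as the submitters' processing notes list them. The labels name mouse as the organism while symbols and build are human, so host reads that align to human genes may be among the values. The deposited tables hold raw counts by gene symbol and, from the authors' own scaling, log2 values that match log2(count / size factor + 1) within 5.15e-14, with median-of-ratios factors recomputed here. Only the counts were tested. No column lay outside the 15 samples. No human sequence, gene length or coordinate was used here, so CPM is compared between libraries and never between genes.

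The tests ran on the counts in edgeR 4.0.16 under R 4.3.3 (TMM, filterByExpr by group, robust quasi-likelihood fit, two-sided test, Benjamini-Hochberg adjustment over 15190 genes holding 99.98% of counts, threshold 0.05). All 15 libraries entered a single fit with the adhesion group as the only term, and a second fit had title number and group. Standard errors were derived from the fold change and its F statistic (size of the log2 value over the root of F), and the approximate intervals use the t distribution. The biological coefficient of variation was 33.6%, and 22.4% with title number as a term. Log2 CPM for likeness and spread used a prior count of 2. The 31 pairs of libraries within groups all differed beyond sampling noise. Same-numbered strongly adherent and unsorted libraries deviated together (correlations of 0.28 to 0.75, each over 0.1), so their numbers were taken to pair them, from the data and not from a label. The tests given for this comparison are still from the fit with the group alone, unless the block is named. Alternatives were DESeq2 1.42.0 with and without the replicate block, DESeq2 size factors, other filters, the 2 groups alone and libraries left out.

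The members and the gene lists were chosen with earlier results of these data known. The members are always named, and from each list up to 4 called genes with the smallest p, or with none called the 2 most abundant by mean CPM, though some so picked are left out.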

Additional observations from a re-analysis of the deposited data

Results flagged for a closer look

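SLC7A11 in strongly adherent library 5, at 25.0 CPM, lay far from the other 3 strongly adherent libraries, of which the nearest was at 14.2 CPM. The gap took 0.909 of the group's range, above Dixon's 95% critical value of 0.829 for 4 libraries. This is the library with a muscle marker sum of 3100 CPM. It was also the highest of all libraries in GSR (93.4 CPM), GCLM (54 CPM) and NQO1 (54.4 CPM) and the lowest in CTH (3.18 CPM). These are the genes of glutathione and cystine metabolism named above. The part of muscle RNA, or of any other feature of this library, in its SLC7A11 was not tested.

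SLC3A2 in unsorted library 6, at 56.7 CPM, lay below the other 4 unsorted libraries, of which the nearest was at 82.9 CPM. The gap took 0.76 of the range, against a critical value of 0.71 for 5 libraries. Its muscle marker sum was 1150 CPM, and the part of that in this value was not tested. Such a gap was looked for in 24 sets of libraries, a gene in an adhesion group each, and chance alone gives about 1 in 20.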

How the results depend on the processing

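SLC7A2 stayed higher in strongly adherent origin under all settings run, with log2 fold changes of 0.51 to 1.06 against weakly adherent and 0.59 to 1.28 against unsorted origin. It was chosen for this sign in these libraries, so nothing is read from the sign being kept. No other member passed between adhesion groups in any setting (lowest adjusted p 0.536 by edgeR). Same-numbered libraries correlated at 0.016 to 0.77 for strongly with weakly adherent and at 0.033 to 0.68 for weakly adherent with unsorted libraries, so the numbers were not taken to pair those, and 2 of 4 and 3 of 5 numbers matched best with their own. For strongly adherent with unsorted libraries 2 of 4 did. With the replicate block edgeR called 0 genes in each comparison of adhesion groups, and DESeq2 called 30 for strongly against weakly adherent and 23 for strongly adherent against unsorted origin. The block turned SLC7A8 to -0.26 for strongly adherent against unsorted origin by both tools, and changed the sign or call of no other member. For that comparison, taken as paired, the relatives of lowest adjusted p in the edgeR block fit were SLC7A5, SLC7A11 and SLC7A1. Their log2 fold changes were 0.48 (SE 0.265, adjusted p = 0.645), 0.92 (SE 0.546, adjusted p = 0.664) and -0.21 (SE 0.141, adjusted p = 0.688).

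Without number 6 the log2 fold changes that turned were SLC7A6 (-0.060 for strongly against weakly adherent, -0.026 for strongly adherent against unsorted, 0.034 for weakly adherent against unsorted), SLC3A2 (-0.071 for strongly adherent against unsorted), SLC7A7 (0.026) and SLC7A8 (0.041), both for weakly adherent against unsorted. Without strongly adherent library 5 as well, they were SLC7A6 (-0.022) and SLC7A7 (0.080) for strongly against weakly adherent, SLC7A5 (-0.012), SLC7A7 (0.11) and SLC3A2 (-0.28) for strongly adherent against unsorted, and SLC7A6 (0.034), SLC7A7 (0.027) and SLC7A8 (0.042) for weakly adherent against unsorted origin. None of these passes a test, and the cause was not tested.

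Genes that differed between title numbers numbered 3344 by DESeq2 and 3 without number 6, the second chosen after seeing the data. DESeq2 called 26, 92, 97, 102 and 312 genes for numbers 4, 5, 7-8, 9 and 10. Without a filter edgeR called 18 for number 7-8 and 9 for number 10, and with at least 1 CPM in 4 libraries it called 4 for number 7-8. Leaving out each library gave 386 to 1621 genes between title numbers, with 386, 591, 637, 670 and 749 without strongly adherent 6, unsorted 6, strongly adherent 4, unsorted 9 and unsorted 4. It gave 0 to 10, 0 to 41, 1981 to 4231, 0 to 90, 0 to 15 and 0 to 228 for numbers 4, 5, 6, 7-8, 9 and 10, with the 1981 of number 6 without strongly adherent library 6. It moved log2 fold changes for strongly against weakly adherent origin to -0.15 to 0.073 for SLC7A1, -0.0071 to 0.17 for SLC7A6, -0.18 to 0.069 for SLC7A7 and -0.016 to 0.59 for SLC7A8. For strongly adherent against unsorted origin it gave -0.051 to 0.12 for SLC7A6 and -0.046 to 0.56 for SLC7A8, and for weakly adherent against unsorted origin -0.20 to 0.091 for SLC7A5, -0.12 to 0.022 for SLC7A6 and -0.27 to 0.22 for SLC7A8. In number 6 it gave -0.10 to 0.35 for SLC7A2, -0.051 to 0.30 for SLC7A6, -1.28 to 0.22 for SLC7A11 and -0.053 to 0.49 for SLC3A2, which passed without unsorted library 6 (0.49, adjusted p = 0.0373 by edgeR). Depth limits SLC7A7 and SLC7A8 most, at 65 to 176 and 9 to 135 counts per library.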
